A study of Mus musculus with 9 samples.

Results

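The genes described here encode the chains of the collagens, the most abundant proteins of connective tissue. They are the 42 genes whose symbol in the array's annotation reads Col, a number, the letter a and a number, out of 18193 genes annotated on the array. The 42 genes are read by 82 of the array's 45101 probe sets. The fibrillar class holds 11 of them, the basement membrane class 8, and 23 are in neither. After a filter on dim signals, 35 of the 42 genes were tested among 13064 genes in all.

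Neonatal mouse bladders were frozen and sectioned, and 3 tissue layers were taken from the sections by laser capture microscopy: the urothelium (the epithelium that lines the lumen), the detrusor (the smooth muscle coat) and the stroma (the connective tissue). Each layer has 3 arrays, listed as urothelium 1 to 3, detrusor 1 to 3 and stroma 1 to 3. Every animal was of the FVB/N strain and carried the SMGA/EGFP transgene, for which the study's title gives Actg2, smooth muscle gamma-actin, so no layer was measured without it. Animals were at postnatal day 1 (urothelium 2, detrusor 1 and 2, stroma 1) or day 2 (urothelium 1 and 3, detrusor 3, stroma 2 and 3), their sex was recorded as unknown, and samples were not pooled. The labels do not say which arrays share an animal, so p-values measure only the spread between these arrays, which may be technical, and animals shared within or between layers could not be taken into account.

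Collagen chains are synthesised as precursors, wind around each other into rope-like helices in the endoplasmic reticulum and are trimmed and crosslinked outside the cell. Fibrillar collagens form the tensile fibrils of stroma and muscle coats. Type IV collagen forms the sheet-like network of the basement membrane that underlies epithelia and surrounds each smooth muscle cell, and collagens XV and XVIII sit at the edge of that membrane. The remaining collagens decorate fibrils (the FACIT group), form beaded filaments or anchoring fibrils, or span the cell membrane. In the bladder, collagens I, III and IV are the forms best known from the wall, where they carry load as it fills.

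The level used below is log2 of the deposited intensity plus 39.3 intensity units, the value at the 20th percentile of all readings. This constant damps the differences of dim genes, and levels are not compared between genes because probes differ in brightness. A gene was called higher or lower when its adjusted p fell under 0.05 in limma, with adjustment over all 13064 genes.

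Some arrays carried the markers of a layer other than their own. The summed intensity of 8 smooth muscle markers was 29178, 20677 and 299244 units on urothelium 1, 2 and 3, against 324419 to 467691 in detrusor and 50816 to 169940 in stroma. The sum on urothelium 3 came close to that of detrusor through its brightest genes, among them Myh11, at a log2 level of 15.66 against 15.81 to 16.57 in detrusor. Hspb6 stood at 10.69 on urothelium 3 against 13.58 to 14.05 in detrusor, and Smtn at 11.33 against 13.27 to 14.32. The 9 urothelial markers summed to 223157 to 302304 units in urothelium, 5044 to 7070 in detrusor, and 52652, 17660 and 211652 on stroma 1, 2 and 3. Stroma 3 came close to urothelium. The 8 fibroblast markers ran from 24950 to 51137 units in urothelium, from 96126 to 142358 in detrusor and from 146846 to 228334 in stroma, without overlap between layers. No marker was at 0 on any array. The ratio of 3' to 5' actin control signal, which rises as RNA is degraded, was 5.32 to 8.49 in urothelium, 2.27 to 7.49 in detrusor and 5.0 to 24.7 in stroma, with its highest value on stroma 1. The same ratio for the Gapdh control ordered the arrays differently, at 19.1 to 23.4 in urothelium, 15.9 to 34.7 in detrusor and 15.3 to 31.8 in stroma, with its highest value on detrusor 2. In bulk captures such as these, fewer cells of a type and less RNA per cell cannot be told apart.

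**Figure D1:**
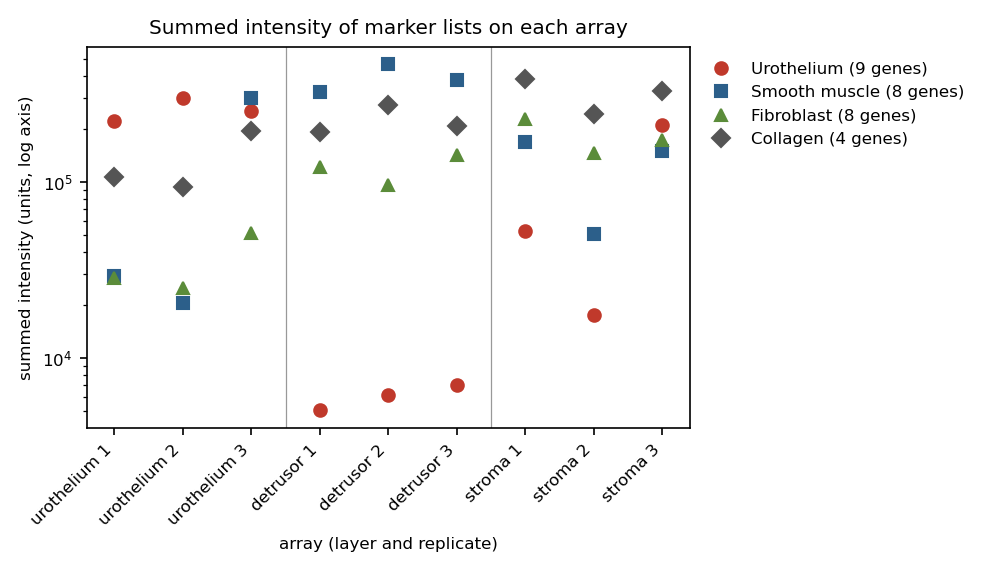
Summed intensity, in array units on a log axis, of the urothelial, smooth muscle and fibroblast marker lists and of 4 collagen genes (Col1a1, Col3a1, Col4a1, Col5a1) on each of the 9 arrays; each point is the sum on 1 array. Urothelium 3 stands at 299244 units for smooth muscle markers, stroma 3 at 211652 for urothelial markers, and the 4 collagens at 94460 to 196331 in urothelium, 192724 to 275601 in detrusor and 243701 to 384940 in stroma.

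Most collagens, but not all, had a lower mean in urothelium than in the other layers: 36 of the 42 against stroma and 30 of the 42 against detrusor, with 6 and 12 higher. Over all 42 genes the median log2 difference was -1.08 for urothelium against stroma, beside -0.21 over all 18193 genes. It was -0.76 for urothelium against detrusor, beside -0.01 over all genes, and -0.30 for detrusor against stroma, beside -0.24. With each array centred on its own median, the collagen median was -0.66 for urothelium against stroma, with 12 of the 42 genes higher, beside 0.22 over all genes. It was -0.75 for urothelium against detrusor, and it turned to 0.12 for detrusor against stroma, with 23 genes higher and 19 lower, so no direction is given for the family in that comparison. In 18 of the 42 genes every urothelium array lay below every stroma array and in 0 above, where 13.5% and 7.47% of all genes did so. Against detrusor, every urothelium array lay below in 16 genes and above in 4, beside 16.3% and 15.4% of all genes. The urothelial comparisons share their 3 urothelium arrays and are not independent of each other. Urothelium 3 was the highest urothelial array for 22 of the 42 collagens and 38.4% of all genes, and urothelium 2 the lowest for 27 collagens and 48.5% of all genes. Among stroma arrays, stroma 1 was the highest for 21 of the 42 and 34.2% of all genes.

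**Figure D2:**
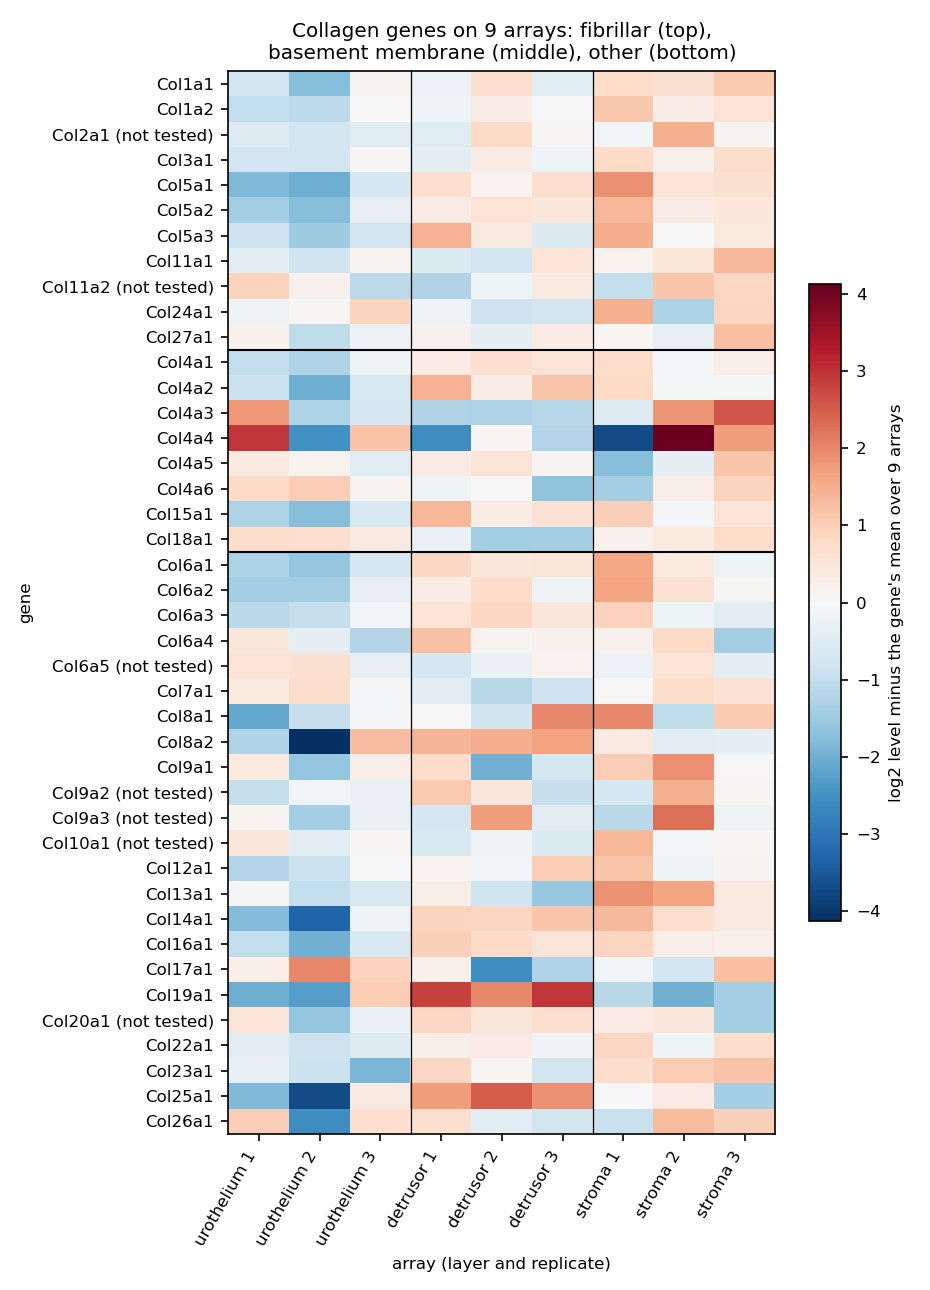
Log2 level of each of the 42 collagen genes on the 9 arrays, minus the gene's mean over the arrays, with urothelium, detrusor and stroma from left to right and fibrillar, basement membrane and other collagens from top to bottom. Fibrillar genes are mostly below their mean in urothelium, Col19a1 and Col25a1 stand out in detrusor, and Col4a4 varies most within a layer.

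The fibrillar class was lower in urothelium than in stroma for 11 of 11 genes by the difference of means, with a median of -1.10 on the log2 scale and a range from -2.54 to -0.09. With each array centred on its own median, which moves the median of all tested genes by 0.42 in this comparison, the class median was -0.68 and 9 of 11 genes were lower. In 8 of the 11 every urothelium array lay below every stroma array, where 13.5% of all genes did so in that direction. The 8 include Col2a1, which was dim and failed the filter, at 15.6 to 26.0 units in urothelium and 46.3 to 219 in stroma. In the class of other collagens 20 of 23 genes were also lower than in stroma (median -1.05). Against detrusor the fibrillar median was -0.72, with 9 genes lower and 2 higher. Every urothelium array lay below every detrusor array in 4 of the 11, beside 16.3% of all genes.

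Col1a1 and Col1a2 encode the chains of type I collagen, the main fibril protein of connective tissue. The log2 level of Col1a1 was 14.28, 13.32 and 15.18 in urothelium, 14.83, 15.76 and 14.58 in detrusor, and 15.83, 15.71 and 16.14 in stroma. All 3 urothelium arrays lay below all 3 stroma arrays, while urothelium and detrusor overlapped, as did detrusor and stroma. A further Col1a1 probe set that passed the filter overlapped between urothelium and stroma. It read 9.89, 8.26 and 9.73 in urothelium and 10.62, 8.64 and 11.54 in stroma (-0.97, limma adjusted p = 0.556). Col1a2 stood at 14.90, 14.85 and 15.89 in urothelium, at 15.73, 16.22 and 15.94 in detrusor, and at 17.02, 16.22 and 16.48 in stroma. The detrusor arrays overlapped with urothelium 3, and the highest of them met the lowest of the stroma arrays. Neither gene passed the test. The difference of urothelium from stroma was -1.63 ± 0.44 for Col1a1 (SE, n = 3 arrays a layer, limma adjusted p = 0.0855) and -1.36 ± 0.31 for Col1a2 (adjusted p = 0.0639).

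Col3a1 encodes type III collagen, which co-assembles with type I in distensible organs. Its levels were 15.91, 15.92 and 16.77 in urothelium, 16.32, 17.03 and 16.53 in detrusor, and 17.54, 16.92 and 17.44 in stroma. Only stroma stood apart from urothelium on every array, and the difference of -1.10 ± 0.28 did not pass (adjusted p = 0.0786).

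Type V collagen lies inside type I fibrils and sets how they nucleate and how wide they grow. Its chain Col5a1 had log2 levels of 12.28, 12.09 and 13.36 in urothelium, 14.79, 14.26 and 14.75 in detrusor, and 16.00, 14.63 and 14.73 in stroma. Every urothelium array lay below every other array. Col5a1 was called lower in urothelium than in stroma, by -2.54 ± 0.42 (SE; 5.82-fold lower; adjusted p = 0.0443). It was the only collagen of the 42 called in that comparison, in which 0.168% of all genes tested were called lower and 0.0612% higher, and it lost the call under 12 of 22 alternatives, with adjusted p between 0.0104 and 0.632. Against detrusor it was lower by -2.02 ± 0.42 (adjusted p = 0.00872). Both further Col5a1 probe sets that passed the filter were lower by the difference of means and not called, at -1.60 and -1.56 against stroma (adjusted p = 0.0854 and 0.241) and -0.94 and -1.35 against detrusor (adjusted p = 0.139 and 0.194).

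The second type V chain, Col5a2, measured 13.30, 12.97 and 14.40 in urothelium, 15.09, 15.29 and 15.22 in detrusor, and 16.12, 15.08 and 15.18 in stroma. Urothelium lay apart below the other layers, which overlapped. Col5a2 was lower in urothelium than in detrusor by -1.64 ± 0.38 (adjusted p = 0.0139). Against stroma the difference of -1.90 ± 0.38 missed the threshold (adjusted p = 0.0543). A further Col5a2 probe set differed by -1.49 from detrusor and was not called (adjusted p = 0.0706). Col24a1, a minor fibrillar chain, gave 8.06, 8.32 and 9.18 in urothelium, 8.06, 7.39 and 7.51 in detrusor, and 9.73, 6.95 and 9.14 in stroma. Its stroma arrays spanned the values of both other layers, and the fitted difference of detrusor from stroma was -0.95 ± 0.69 (adjusted p = 0.447). Col2a1 and Col11a2, which are cartilage chains, failed the filter and were not tested.

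The promoter of Col5a1, the fibrillar gene called in both urothelial comparisons, is printed with its GGGCGG matches on either strand in capitals. RefSeq promoter windows (GRCm38.p6, 250 bases before to 50 after the annotated start) were found for 33 of the 42 genes, in 36 windows. The Col5a1 window is chr2:27886175-27886474 on the plus strand and holds GGGCGG at 2 places.
Col5a1: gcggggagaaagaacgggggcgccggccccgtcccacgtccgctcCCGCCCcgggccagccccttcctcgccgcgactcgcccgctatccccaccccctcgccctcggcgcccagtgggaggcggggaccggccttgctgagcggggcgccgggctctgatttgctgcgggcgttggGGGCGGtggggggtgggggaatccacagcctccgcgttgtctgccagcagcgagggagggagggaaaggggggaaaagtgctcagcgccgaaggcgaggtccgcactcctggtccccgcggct

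The core GC box, GGGCGG, was looked for on both strands in all windows, as were 3 other motifs, and none of the matches printed overlapped. It was in 22 of the 36 collagen windows and in 35.7% of all 32851 windows of that length. The TATA box letters TATAAA were in 5 collagen windows and 13.6% of all windows. The CCAAT box, in these letters, was in 13 collagen windows and 37.4% of all. The CArG box, bound by serum response factor, was in 1 and in 1.63% of all. The 8 fibrillar windows held the GC box in 6, the CCAAT box in 3, the TATA box in 2 and the CArG box in 0.

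**Figure D3:**
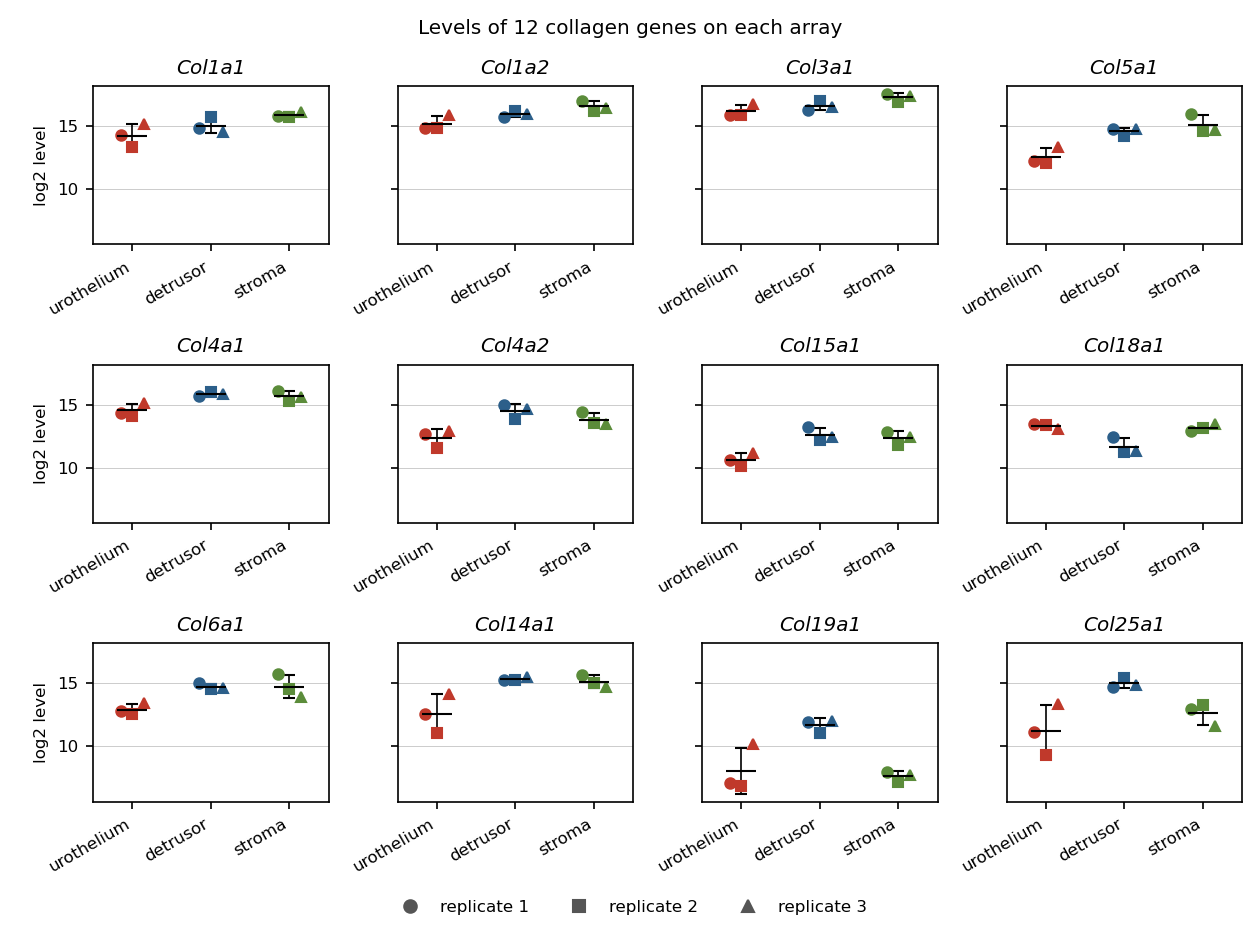
Log2 level of 12 collagen genes on each array, with urothelium, detrusor and stroma from left to right in each panel; symbols are the replicates, the horizontal bar is the layer's mean and the whisker its SD (n = 3 arrays). Urothelium lies below the other layers for Col5a1, Col4a1, Col4a2, Col6a1, Col14a1 and Col15a1, detrusor lies below them for Col18a1, and detrusor lies above them for Col19a1 and Col25a1.

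The basement membrane class did not move as a block. Against stroma, 3 of its 8 genes were higher and 5 lower in urothelium by the difference of means (median -0.66), and with arrays centred 4 were higher and 4 lower (median -0.23). Against detrusor 4 were higher and 4 lower (median 0.43). Without Col4a3 and Col4a4, whose arrays spread widely, 2 of the other 6 were higher and 4 lower than in detrusor and the median turned to -0.82. The paired chains Col4a1 and Col4a2, which together form the type IV network of nearly every basement membrane, were both called lower in urothelium than in detrusor. In that comparison 11 of the 42 collagens were called lower and 1 higher, where 8.05% of all genes tested were called lower and 8.37% higher.

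Col4a1 had log2 levels of 14.36, 14.13 and 15.17 in urothelium, 15.72, 16.03 and 15.90 in detrusor, and 16.13, 15.32 and 15.67 in stroma. Every urothelium array was below every array of the other layers, with urothelium 3 just under the lowest stroma array. The difference from detrusor was -1.33 ± 0.30 (adjusted p = 0.0121), and a further Col4a1 probe set was called too. For Col4a2 the levels were 12.67, 11.55 and 12.90 in urothelium, 14.99, 13.89 and 14.71 in detrusor, and 14.41, 13.53 and 13.50 in stroma. The layers kept the same separation, with a difference from detrusor of -2.16 ± 0.43 (4.46-fold lower; adjusted p = 0.0065). Against stroma neither passed, at -1.15 ± 0.30 for Col4a1 (adjusted p = 0.0788) and -1.44 ± 0.43 for Col4a2 (adjusted p = 0.106).

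These 2 genes lie head to head on chromosome 8 and share a promoter region, which is why the Col4a2 window is shown. Their annotated starts are 21 bases apart on opposite strands, and their windows overlap by 78 bases at chr8:11312777-11312854 (GRCm38.p6), printed in capitals in the Col4a2 window, chr8:11312555-11312854, plus strand.
Col4a2: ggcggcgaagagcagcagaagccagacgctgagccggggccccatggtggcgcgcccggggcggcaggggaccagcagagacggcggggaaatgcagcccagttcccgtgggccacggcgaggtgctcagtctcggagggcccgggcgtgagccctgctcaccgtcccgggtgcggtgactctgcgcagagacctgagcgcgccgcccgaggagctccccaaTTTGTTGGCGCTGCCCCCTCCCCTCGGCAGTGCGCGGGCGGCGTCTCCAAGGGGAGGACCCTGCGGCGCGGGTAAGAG

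The Col4a5 and Col4a6 pair on chromosome X is also arranged head to head, with starts 1343 bases apart and windows that do not overlap. Their chains occur in a network found in smooth muscle and some epithelia. Over the 3 layers Col4a5 ranged from 9.95 to 12.85 and Col4a6 from 9.55 to 12.25. Neither passed in any comparison, and Col4a6 lay higher on every urothelium array than on every detrusor array (1.26 ± 0.61, adjusted p = 0.203). Col4a3 and Col4a4, the neighbours on chromosome 1 that are best known from the kidney filter, spread widely within urothelium and stroma. Col4a3 read 8.53, 5.45 and 6.04 in urothelium, 5.50, 5.45 and 5.54 in detrusor, and 6.18, 8.56 and 9.31 in stroma. The detrusor arrays lay near 5.30, the level of a reading of 0 intensity units, and below every stroma array, and the difference of -2.52 ± 0.96 did not pass (adjusted p = 0.151). Col4a4 spanned 5.57 to 13.32 within stroma alone.

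Collagens XV and XVIII, the basement membrane zone collagens that carry glycosaminoglycan chains, ran in opposite directions. Col15a1 had log2 levels of 10.60, 10.12 and 11.21 in urothelium, 13.25, 12.18 and 12.48 in detrusor, and 12.88, 11.82 and 12.43 in stroma. Urothelium lay below both other layers on every array, and was lower than detrusor by -1.99 ± 0.42 (adjusted p = 0.00858). Against stroma the difference was -1.74 ± 0.42 (adjusted p = 0.0681).

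Col18a1, whose C-terminal fragment is endostatin, was the 1 collagen called higher in urothelium than in detrusor. It measured 13.44, 13.42 and 13.11 in urothelium, 12.45, 11.28 and 11.32 in detrusor, and 12.90, 13.13 and 13.50 in stroma. Detrusor was the low layer, and urothelium and stroma overlapped. Urothelium exceeded detrusor by 1.64 ± 0.35 (3.11-fold; adjusted p = 0.00968). Detrusor was lower than stroma by -1.49 ± 0.35 (adjusted p = 0.0341), where 2.72% of all genes tested were called lower in that comparison. A further probe set of the gene was called in both comparisons, at 2.44 and -2.37. The call against stroma was lost under 11 of 22 alternatives, among them centring each array on its median and leaving out stroma 3 and urothelium 3 (-1.33 ± 0.41, adjusted p = 0.118). Col18a1 was at its stromal maximum on stroma 3, where the urothelial markers summed to 211652 units. Stroma 1 and 2 ran the other way, at 52652 and 17660 units beside 12.90 and 13.13 for Col18a1. The part of these markers in the result was not tested.

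Among the other collagens, type VI collagen forms beaded filaments that link cells to the fibrils around them. Of its 5 chains on the array, Col6a1 and Col6a3 were called lower in urothelium than in detrusor. Col6a1 stood at 12.83, 12.53 and 13.42 in urothelium, 15.00, 14.58 and 14.66 in detrusor, and 15.75, 14.54 and 13.95 in stroma, a difference from detrusor of -1.82 ± 0.42 (adjusted p = 0.013). Col6a3 gave 13.95, 14.11 and 14.93 in urothelium, 15.62, 15.89 and 15.54 in detrusor, and 16.00, 14.83 and 14.61 in stroma, and differed from detrusor by -1.35 ± 0.37 (adjusted p = 0.0302). For Col6a1 urothelium was apart from both layers, and for Col6a3 it overlapped with stroma. The Col6a3 call was lost under 8 of 22 alternatives: centring, postnatal day as an added term, day 2 arrays alone, and without urothelium 1 or 2 or any detrusor array. Col6a2, the neighbour of Col6a1 on chromosome 10, was -1.33 ± 0.43 in the same comparison and missed the threshold (adjusted p = 0.0617). Col6a4 overlapped between the layers (-0.87 ± 0.69, adjusted p = 0.453), and Col6a5 failed the filter, with a mean 0.55 higher in urothelium.

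Col14a1 and Col16a1 are FACIT collagens, which bind to the surface of fibrils. Col14a1 measured 12.56, 11.04 and 14.14 in urothelium, 15.28, 15.24 and 15.50 in detrusor, and 15.69, 15.01 and 14.72 in stroma. Its urothelium arrays spread widely, with urothelium 3 the highest, yet all lay below the others, and the difference from detrusor was -2.76 ± 0.60 (6.79-fold lower; adjusted p = 0.0106). A further Col14a1 probe set was called too. Col16a1 had 11.31, 10.34 and 11.68 in urothelium, 13.30, 13.10 and 12.84 in detrusor, and 13.22, 12.59 and 12.53 in stroma. Urothelium was apart from both layers, and lower than detrusor by -1.97 ± 0.38 (adjusted p = 0.00551), the smallest adjusted p of any collagen. Against stroma, the differences were -2.56 ± 0.60 for Col14a1 (adjusted p = 0.0667) and -1.67 ± 0.38 for Col16a1 (adjusted p = 0.0639).

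Detrusor was the high layer for Col19a1 and Col25a1. Col19a1 encodes a FACIT collagen that in mice is needed for normal muscle of the oesophagus. Its log2 levels were 7.09, 6.83 and 10.17 in urothelium, 11.95, 11.09 and 12.05 in detrusor, and 7.96, 7.13 and 7.72 in stroma. All 3 detrusor arrays lay above every other array, and urothelium 3, the array rich in smooth muscle markers, was the next highest. The mean was 11.70 ± 0.53 in detrusor and 7.60 ± 0.43 in stroma (SD, n = 3 each). Detrusor exceeded stroma by 4.09 ± 0.78 (SE; 17.1-fold; adjusted p = 0.0168), where 3.12% of all genes tested were called higher. Urothelium was below detrusor by -3.67 ± 0.78 (12.7-fold; adjusted p = 0.0092). The call against stroma was lost when any of the 3 detrusor arrays was left out and on day 2 arrays alone. Of its other 2 probe sets, neither passed the filter, and 1 of them read 10.42, 5.87 and 10.79 in detrusor, so detrusor 2 did not share the high reading there. The last probe set was dim and differed by -0.04 between detrusor and stroma.

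Col25a1 encodes a membrane-spanning collagen that in mice is needed for motor nerves to innervate skeletal muscle. It gave 11.14, 9.29 and 13.34 in urothelium, 14.70, 15.47 and 14.86 in detrusor, and 12.98, 13.30 and 11.60 in stroma. The detrusor arrays were again above all others, and urothelium 3 reached the top of the stromal values. Urothelium was lower than detrusor by -3.76 ± 0.82 (13.5-fold; adjusted p = 0.0107). Detrusor against stroma was 2.38 ± 0.82 and did not pass (adjusted p = 0.117). A further Col25a1 probe set differed by -1.16 between urothelium and detrusor and was not called. On it detrusor and stroma overlapped, with stroma 2 at 9.72 and detrusor 2 at 9.44, and detrusor against stroma was 0.67 (limma adjusted p = 0.467).

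The sum of 5 skeletal muscle markers followed the same layers, though 1 of the 5, Myog, did not. Myog read 11.49, 5.56 and 6.45 in detrusor, and 8.00, 7.21 and 6.18 in stroma. The 5 markers summed to 450, 95 and 31694 units in urothelium, 108833, 101486 and 105549 in detrusor, and 9493, 1001 and 6561 in stroma. Of the 4 tested, 4 were lower in urothelium than in detrusor and 3 higher in detrusor than in stroma. The 8 smooth muscle markers counted 6 lower in urothelium than in detrusor and 2 higher in detrusor than in stroma. Over all genes tested, 8.05% were called lower and 3.12% higher in these comparisons. The part of either list in the levels of Col19a1 and Col25a1 was not tested. Without urothelium 3 and stroma 3, detrusor exceeded stroma by 4.15 ± 0.52 for Col19a1 (adjusted p = 0.0043) and by 1.87 ± 0.52 for Col25a1 (adjusted p = 0.0868).

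The promoter windows of these 2 detrusor-high genes are printed for comparison, in the orientation of each gene, with matches of CCAAT and GGGCGG on either strand in capitals. The Col19a1 window, chr1:24587388-24587687 on the minus strand, holds no match of any of the 4 motifs. The Col25a1 window, chr3:130180595-130180894 on the plus strand, holds 1 CCAAT and 2 GGGCGG.
Col19a1: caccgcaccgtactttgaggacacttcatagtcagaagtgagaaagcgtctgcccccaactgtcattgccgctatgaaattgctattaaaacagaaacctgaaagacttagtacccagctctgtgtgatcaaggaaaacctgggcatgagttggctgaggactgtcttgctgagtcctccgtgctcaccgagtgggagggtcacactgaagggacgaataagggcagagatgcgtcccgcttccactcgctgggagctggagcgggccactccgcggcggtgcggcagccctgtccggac
Col25a1: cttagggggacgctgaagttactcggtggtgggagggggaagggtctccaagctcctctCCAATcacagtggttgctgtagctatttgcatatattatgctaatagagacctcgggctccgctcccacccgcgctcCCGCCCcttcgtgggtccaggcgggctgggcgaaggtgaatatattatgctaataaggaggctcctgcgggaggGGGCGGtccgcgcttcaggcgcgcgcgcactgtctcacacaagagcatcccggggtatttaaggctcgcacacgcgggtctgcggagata

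Several collagens of epithelial or muscle junctions are added here, chosen after their values were seen. Col7a1 forms the anchoring fibrils beneath stratified epithelia. Its levels were 10.29, 10.61 and 9.83 in urothelium, 9.45, 8.74 and 9.03 in detrusor, and 9.87, 10.62 and 10.48 in stroma, so detrusor lay below both other layers on every array. Urothelium against detrusor was 1.17 ± 0.39 (adjusted p = 0.0672) and detrusor against stroma -1.25 ± 0.39 (adjusted p = 0.0894). Col17a1, the hemidesmosomal collagen that fixes epithelial cells to the basement membrane, read 8.34, 10.03 and 9.0 in urothelium, 8.27, 5.51 and 6.81 in detrusor, and 7.96, 7.31 and 9.31 in stroma. Urothelium lay above detrusor, by 2.26 ± 0.79 (adjusted p = 0.077), and overlapped with stroma.

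Col13a1, a membrane-spanning collagen of the neuromuscular junction, was at 8.90, 7.96 and 8.34 in urothelium, 9.22, 8.16 and 7.41 in detrusor, and 10.85, 10.62 and 9.40 in stroma. Stroma stood above both other layers on every array, and detrusor against stroma was -2.03 ± 0.58 (adjusted p = 0.0667). Col8a2, a short-chain collagen known from the basement membrane of the corneal endothelium, gave 10.10, 7.23 and 12.64 in urothelium, 12.77, 12.85 and 13.03 in detrusor, and 11.74, 10.88 and 10.95 in stroma. The detrusor arrays were the highest, just above urothelium 3, and the difference of urothelium from detrusor was -2.89 ± 1.00 (adjusted p = 0.0759). None of these 4 genes passed in any comparison of layers.

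Some calls of urothelium against detrusor rested on single arrays. That of Col4a1 was lost without urothelium 2 or detrusor 3 and that of Col5a2 without urothelium 1, urothelium 2 or detrusor 3. The Col6a1 call was lost without urothelium 2 or detrusor 1, and that of Col18a1 on day 1 arrays alone. Those of Col4a2, Col5a1, Col14a1, Col15a1, Col16a1, Col19a1 and Col25a1 were lost under 1 alternative, day 2 arrays alone, and passed under the other 21. On day 2 detrusor has 1 array and almost no gene of any kind was called, so that loss is not particular to collagens.

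**Figure D4:**
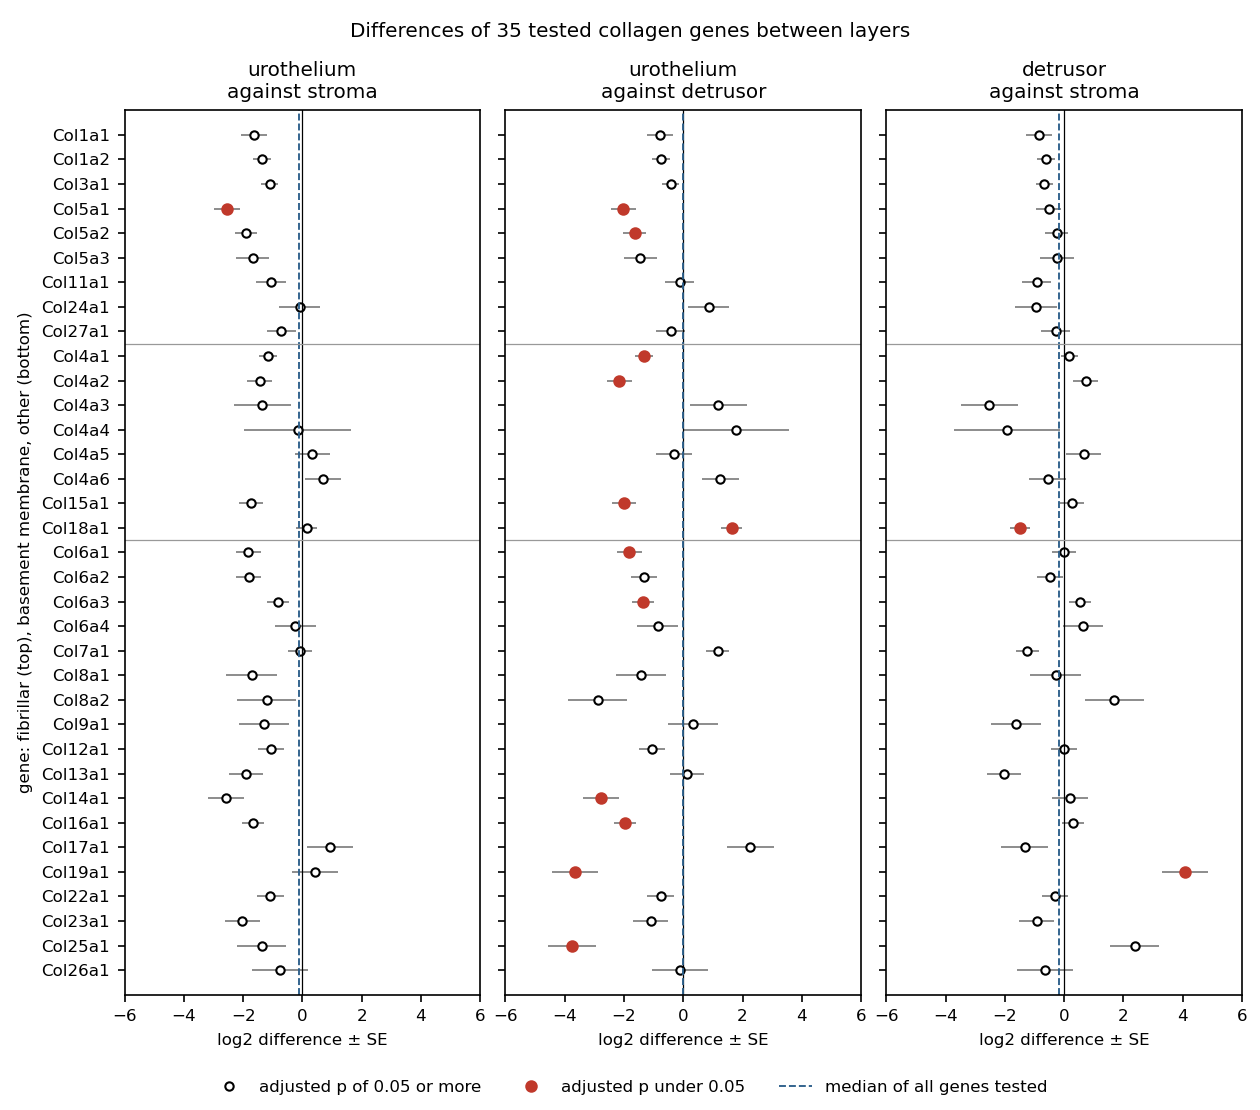
Log2 difference with its SE for the 35 tested collagen genes, for urothelium against stroma, urothelium against detrusor and detrusor against stroma from left to right; filled points passed an adjusted p of 0.05 and the dashed line is the median of all 13064 genes. Filled points number 1, 12 and 2 in the 3 panels, and the 9 fibrillar genes, at the top, lie left of 0 for urothelium against stroma, where Col24a1 (-0.09) turns positive once arrays are centred on their medians.

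No fibrillar gene passed in detrusor against stroma. By the difference of means all 11 fibrillar genes were lower in detrusor on the deposited scale, with a median of -0.61, but with arrays centred on their medians 4 were higher and 7 lower and the median was -0.19. Centring moved the median of all tested genes by 0.41 there, and it turned the median of the basement membrane class, which was -0.19 as deposited and 0.22 centred, and of the other collagens, -0.14 and 0.28. No direction is therefore given for those classes.

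Urothelium 3 came close to detrusor in its smooth muscle sum, and stroma 3 to urothelium in its urothelial sum. Stroma 1 also held such markers, at 169940 units for smooth muscle, beside 149740 on stroma 3, and 52652 for urothelium. Leaving out urothelium 3 and stroma 3 gave more calls in urothelium against stroma, where 1 collagen was called with all arrays. Then 11 of the 42 collagens were called lower in urothelium, where 1.71% of all genes tested were called lower in the same comparison: Col1a1, Col1a2, Col3a1, Col4a1, Col5a1, Col5a2, Col6a1, Col6a2, Col14a1, Col16a1 and Col25a1. The difference was -1.97 ± 0.44 for Col1a1 (adjusted p = 0.0481), -1.31 ± 0.29 for Col3a1 (adjusted p = 0.0481) and -3.13 ± 0.44 for Col5a1 (adjusted p = 0.0123). The fibroblast markers moved with these genes: 5 of the 8 were lower in urothelium than in stroma with all arrays, and 5 of 8 lower than in detrusor. Over all genes tested, 0.168% and 8.05% were called lower there. Other lists were separated between urothelium and stroma as well, not all in the same direction. The 6 endothelial markers summed to 2984 to 9461 units in urothelium and 13167 to 28528 in stroma, and the 5 macrophage markers to 3371 to 5890 in urothelium and 7335 to 46327 in stroma, with 0 of 6 and 0 of 5 called. Csf1r was the brightest macrophage marker in every layer. Ptprc of the same list went the other way, at 10.17, 7.19 and 10.77 in urothelium and 8.36, 6.25 and 7.82 in stroma. The endothelial and macrophage sums were highest on stroma 1, the array that was the highest of its layer for 21 collagens. In detrusor the endothelial markers summed to 6159 to 18243 units and the macrophage markers to 4317 to 7878. The 2 glial markers measured summed lower in urothelium (437 to 649 units) than in stroma (777 to 1398). Of these, S100b overlapped, at 7.87, 8.38 and 8.29 in urothelium and 9.48, 9.57 and 7.65 in stroma. Pericyte markers summed higher in urothelium (58900 to 67387) than in stroma (18311 to 57062), through Rgs5. Pdgfrb, Kcnj8 and Abcc9 of that list were lower in urothelium on every array. Mesothelial markers also summed higher in urothelium (20620 to 42067 against 2684 to 7473), through Upk3b. The part of these lists in the collagen differences was not tested.

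Postnatal day gave no called collagen. Of the 35 tested, 0 passed in day 2 against day 1 in limma with layer in the model, where 0.0153% of all genes tested were called and 5.56% had an unadjusted p under 0.05. Among the collagens 2 had an unadjusted p under 0.05, Col4a4 and Col11a1. Col4a4 had the smallest p, with a difference of 3.74 ± 1.10 (adjusted p = 0.873). Its values at day 1 were 6.77 on urothelium 2, 6.70 and 9.33 on detrusor 1 and 2 and 5.57 on stroma 1, and at day 2 they were 12.21 and 10.43 in urothelium, 8.07 on detrusor 3 and 13.32 and 11.01 in stroma. Day 2 lay above day 1 within urothelium and within stroma, while detrusor overlapped. A test of whether layer differences depend on day passed for 0 of 35 genes, with a smallest adjusted p of 0.559. Unadjusted p-values under 0.05 were found in 23 of 105 pairs of a gene and a comparison, where 5.99% of such pairs over all genes had one, and the 3 comparisons share arrays. The smallest was for Col4a6 in detrusor against stroma, a difference lower by -3.56 on day 2 than on day 1 (adjusted p = 0.82). Its day 1 levels were 11.06 and 11.24 in detrusor and 9.86 in stroma. Its day 2 levels were 9.55 in detrusor and 11.51 and 12.15 in stroma, so the layers changed order on the probe set that stood for the gene. A further Col4a6 probe set had detrusor below stroma on both days. It read 9.23 and 8.74 against 9.83 on day 1, and 8.80 against 9.35 and 10.37 on day 2. The 9 arrays leave 3 residual degrees of freedom in this test, and missing the threshold does not show that layers differ alike on both days. Within days the 15 calls kept their sign, as any subset must, since the arrays of the layers compared did not overlap. Col5a1 in urothelium against stroma was -3.90 on day 1 and -1.86 on day 2. For Col19a1 in detrusor against stroma the differences were 3.55 and 4.63.

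Where a gene had several probe sets, most agreed in direction. Of the 82 probe sets 56 passed the filter, and 18 genes had several. Signs were opposite for Col4a6 in urothelium against stroma, for Col4a5, Col11a1 and Col27a1 in urothelium against detrusor and for Col12a1 in detrusor against stroma, none of them called. A further Col3a1 probe set, with 13.48, 13.52 and 14.84 in urothelium, 15.30, 15.46 and 15.65 in detrusor, and 16.50, 15.26 and 15.78 in stroma, was called lower in urothelium than in detrusor when every probe set was tested (-1.53, adjusted p = 0.0282). Likewise a further Col1a2 probe set was called lower in urothelium than in stroma (-1.71, adjusted p = 0.0428).

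The 7 collagens Col2a1, Col6a5, Col9a2, Col9a3, Col10a1, Col11a2 and Col20a1 failed the filter in every probe set. Their levels ran from 5.36 to 9.19 over all arrays, and 0 intensity units corresponds to 5.30. No statement on their absence follows, since the deposited values carry no detection calls.

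The enzymes, chaperones and receptors that make, trim, crosslink and bind collagens were taken as a list of 37 genes, of which 32 were annotated and 30 tested. In urothelium against detrusor 9 were lower and 0 higher, and in urothelium against stroma 1 was lower and 0 higher. Over all genes tested, 8.05% were called lower and 8.37% higher than in detrusor, and 0.168% lower and 0.0612% higher than in stroma. None of the list passed in detrusor against stroma, where 6 had an unadjusted p under 0.05 beside 22.9% of all genes tested. Over the 32 annotated genes the median difference was -1.22 against stroma and -1.07 against detrusor for urothelium, and -0.15 for detrusor against stroma.

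Pcolce, which speeds the removal of the C-propeptide from procollagens, was the gene lower in urothelium in both comparisons. Its levels were 12.33, 11.97 and 13.34 in urothelium, 14.01, 13.99 and 14.38 in detrusor, and 15.54, 14.82 and 15.06 in stroma. The layers did not overlap and stroma was the highest. Urothelium differed from stroma by -2.59 ± 0.35 (adjusted p = 0.0305) and from detrusor by -1.58 ± 0.35 (adjusted p = 0.0118). The proteinase itself, Bmp1, was lower in urothelium than in detrusor by -1.30 ± 0.33 (adjusted p = 0.0216).

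The modifying enzymes called lower in urothelium than in detrusor were the prolyl hydroxylases P4ha3 (-2.12 ± 0.49, adjusted p = 0.0137) and P3h3 (-1.40 ± 0.39, adjusted p = 0.0334) and the lysyl hydroxylase Plod1 (-1.64 ± 0.45, adjusted p = 0.0306). Loxl1, which oxidises lysines for crosslinks, differed by -3.18 ± 0.74 (adjusted p = 0.0143). Sparc, a collagen-binding matrix protein, differed by -1.30 ± 0.30 (adjusted p = 0.0138). The collagen receptors Ddr2 (-2.62 ± 0.61, adjusted p = 0.0138) and Itga1, a subunit of an integrin receptor (-3.60 ± 0.91, adjusted p = 0.0207), complete the 9. Itga1 was high in detrusor, at 12.56, 12.94 and 13.21, against 9.80, 6.92 and 11.19 in urothelium, and 9.53, 9.17 and 11.21 in stroma gave a detrusor against stroma difference of 2.93 ± 0.91 that did not pass (adjusted p = 0.086). Serpinh1, the collagen chaperone of the endoplasmic reticulum, was -1.69 ± 0.41 in urothelium against stroma and missed the threshold (adjusted p = 0.0682).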

How the data were processed

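Transcripts of 3 laser-captured bladder layers were measured on 9 Affymetrix MOE430 arrays. The authors' deposited intensities are linear signals; per the submitters' processing notes they were made with GCOS, with no version or settings named, and every array's trimmed mean (2% off each end) came to 1500 units. Each was raised by 39.3 units (the 20th percentile of all values) and taken to log2. Of 45101 probe sets, 34945 had 1 symbol, 932 several and 9160 none. A probe set was kept if it was at or above its array's median on at least 3 arrays; the brightest stood for its gene. Layers were compared in limma 3.58.1 (R 4.3.3, lmFit, eBayes with trend, all 9 arrays) with Benjamini-Hochberg adjustment over 13064 genes. The fit was also run on simulated data with independent values. Those hold no mixed captures or shared animals, so that run cannot speak to the calls under either. Values per array are given for Col1a1, Col1a2, Col3a1, Col4a1, Col4a2, Col5a1, every called member and each class's largest difference. The members and lists were chosen with earlier results of these data known. Arrays carry no read depth; their number limits the precision. Alternatives covered scaling, pseudocount, filter, probe set choice, array weights, day and left-out arrays.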

Additional observations from a re-analysis of the deposited data

How the results depend on the processing

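Of the 15 calls of a collagen gene in a comparison of layers, the sign held under each of the 22 alternatives for all 15, and 54 of 330 values lost the threshold; none was called under every alternative, since day 2 arrays alone called 0 collagens in each comparison. Collagens called in urothelium against stroma, 1 as reported, numbered 2 with quantile normalization, 0 with the pseudocount at the 5th percentile and 6 at the median, 0 without the filter, 4 with the mean of a gene's probe sets, 2 with every probe set tested, 0 with array weights, 0 with postnatal day as a term, 12 on day 1 arrays, 0 with only the 2 layers in the fit and 11 without stroma 3 and urothelium 3. In urothelium against detrusor, 12 as reported, array weights gave 19. In detrusor against stroma, 2 as reported, centring, array weights, day 1 arrays alone and leaving out stroma 3 and urothelium 3 gave 1 each. Leaving out 1 array at a time gave 0 to 7 in urothelium against stroma (7 without urothelium 3, 5 without stroma 3, 1 without stroma 2, 0 without any other), 8 to 15 in urothelium against detrusor (8 without urothelium 2, 15 without urothelium 3), 0 to 3 in detrusor against stroma (3 without urothelium 2 or 3, 2 without stroma 1, 0 without detrusor 2 or 3, 1 without any other) and 0 for day each time. For the collagen processing and receptor genes, urothelium against stroma gave 2 with quantile normalization, the pseudocount at the median or mean probe sets, 7 on day 1 arrays, 0 on day 2 arrays or in a fit of the 2 layers, 5 without stroma 3 and urothelium 3, and 0 to 4 with 1 array left out (4 without urothelium 3, 2 without stroma 3, 1 without detrusor 2 or stroma 2, 0 without any other). Their count in urothelium against detrusor was 17 with array weights, 0 on day 2 arrays and 1 to 12 with 1 array left out (1 without detrusor 3, 4 without detrusor 1, 5 without urothelium 2, 12 without urothelium 3). Their count in detrusor against stroma was 1 with centring, the pseudocount at the median, day as a term, day 1 arrays or without stroma 3 and urothelium 3, 2 in a fit of the 2 layers, and 0 to 1 with 1 array left out (1 without urothelium 2 or 3). With arrays centred, calls over all genes in urothelium against stroma were 192 higher and 31 lower, beside 8 and 22 as deposited, and in detrusor against stroma 588 and 144, beside 408 and 355. The cause of these changes was not tested; day 1 and day 2 hold 4 and 5 arrays, and where a layer has 1 array it is assumed to vary like the others. No paired analysis was possible because the labels give no replicate numbers that groups share.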
